A study of Mus musculus with 7 samples.

Results

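This account concerns 10 genes that handle cholesterol after it reaches the cell, measured in 2 populations of GFP-sorted mouse adrenal cells. They are the uptake receptor Scarb1, the ester-forming enzymes Soat1 and Soat2, the ester lipase Lipe, the lysosomal exit proteins Npc1 and Npc2, the efflux transporters Abca1 and Abcg1, and the START-domain carriers Stard3 and Stard5. The members were chosen by gene symbol, with earlier results of these data known. All 10 were found, and they are 10 of 20719 genes with a symbol on the arrays. Lipe was represented by the brighter of its transcript clusters, and each of the other 9 genes had a single cluster.

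Both groups were cells of 6-week-old male C57BL/6J mice, collected by flow cytometry after collagenase digestion of 10 pooled adrenals per sort. The SF1+ group (4 arrays) came from Sf1:eGFP mice, whose green reporter is carried by a genomic fragment of Nr5a1, the gene of the steroidogenic transcription factor SF1. The Wnt+ group (3 arrays) came from TCF/Lef:H2B-GFP mice, whose nuclear reporter is driven by repeated TCF/LEF sites on a minimal Hspa1b promoter and so reads canonical Wnt signalling. Each array held RNA of its own sort, amplified from 5 ng and hybridised to a Mouse Gene ST array. Each group was its own transgenic line, so line and cell population cannot be told apart. The arrays give log2 expression after robust multi-array averaging (RMA), their number limits the precision, and all differences below are Wnt+ minus SF1+ on the log2 scale.

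Steroid-producing cells run on cholesterol. In rodents much of it arrives as cholesteryl ester taken from high-density lipoprotein by Scarb1, while low-density lipoprotein is taken in whole and its cholesterol leaves the lysosome through Npc2 and Npc1. Spare cholesterol is esterified in the endoplasmic reticulum by Soat enzymes and kept in lipid droplets, from which Lipe frees it when ACTH calls for steroid. Abca1 and Abcg1 export cholesterol from the cell, and START-domain proteins carry it between membranes.

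Soat1 had the largest positive difference among the 10 genes (0.99, SE 0.23, 1.98-fold) and Stard5 the largest negative one (-0.90, SE 0.20, 0.537-fold). For both genes every array of one group lay apart from every array of the other. None of the 10 passed a limma adjusted p of 0.05 over all genes, a threshold passed by 53 of 20719 genes (0.256%, with 0.0531% higher and 0.203% lower), and the lowest adjusted p among the 10 was 0.126, shared by Soat1 and Stard5. At an unadjusted limma p under 0.05 there were 5 of 10 (Soat1, Scarb1 and Abca1 higher, Stard5 and Soat2 lower), against 15.5% of all genes (7.61% higher, 7.89% lower). The arrays did not overlap for 4 of 10 (Soat1 and Abca1 higher, Stard5 and Soat2 lower), against 14.1% of all genes (7.04% higher, 7.07% lower). The 10 were chosen with earlier results of these data known, so these counts are a description and carry no test. The median difference of the 10 was 0.08, beside 0.02 over all genes, with 5 positive and 5 negative.

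**Figure D1:**
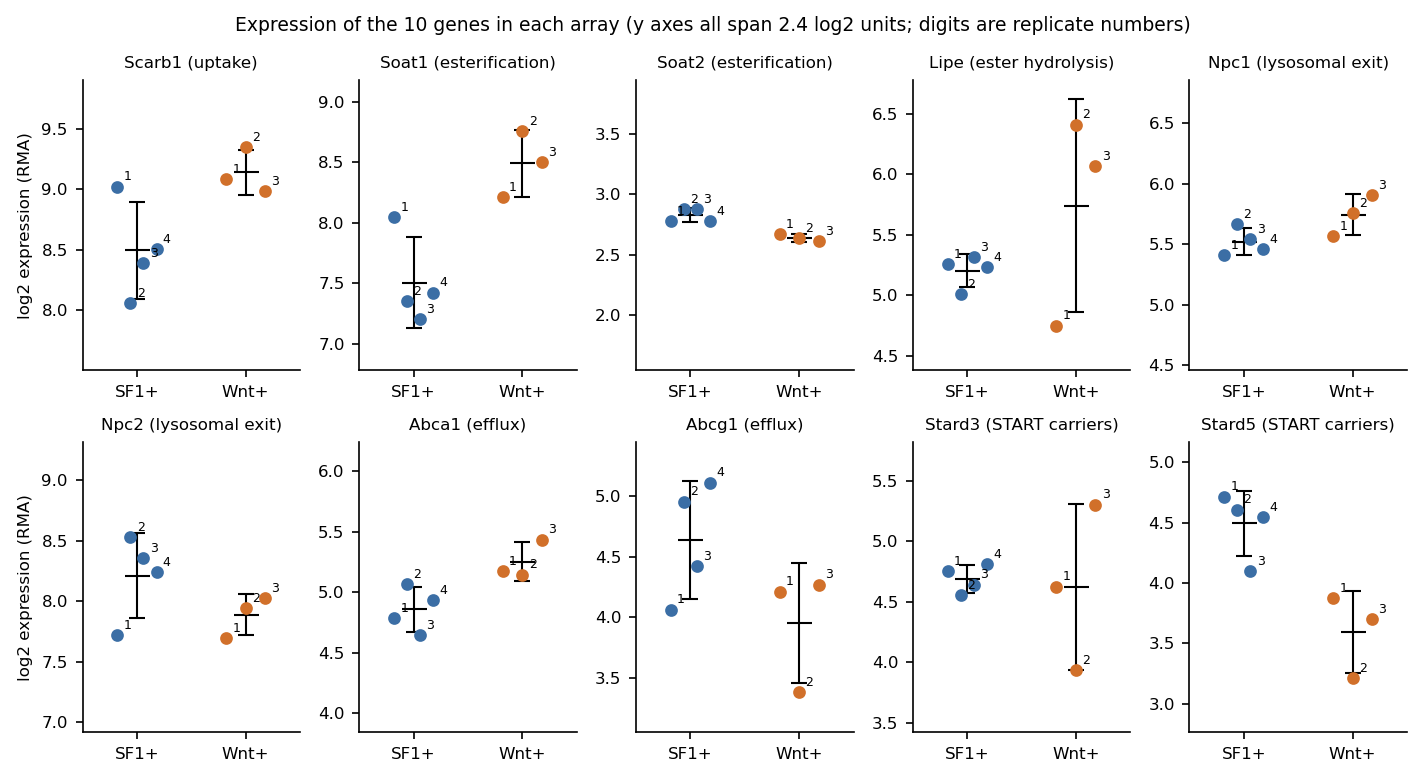
Log2 expression (RMA) of the 10 genes in each array, one panel per gene, with SF1+ arrays in blue and Wnt+ arrays in orange, digits giving the replicate number and black marks the mean with its SD. All panels span 2.4 log2 units. Soat1 and Abca1 lie higher in every Wnt+ array and Stard5 and Soat2 lower, while SF1+ replicate 1 reaches into the Wnt+ range for Scarb1.

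The promoter windows of the genes that lay furthest apart are shown with those of Abca1, whose arrays also did not overlap, and of Npc2, the one window with a TCF/LEF core. RefSeq (GRCm38.p6) gave a window from 250 bases before to 50 bases after the start for 6 of the 10 genes, with 7 windows in all because Lipe had more than one start. Windows are written 5′ to 3′ on the gene's own strand in lower case, and capitals mark a match on either strand to any of 4 motifs, which were chosen after the windows had been read. The motifs were an SF1 recognition sequence, AAGGTCA, the TCF/LEF core TCAAAG, the E-box CACGTG and the GC box GGGCGG.
Soat1, chr1:156474279-156474578, minus strand: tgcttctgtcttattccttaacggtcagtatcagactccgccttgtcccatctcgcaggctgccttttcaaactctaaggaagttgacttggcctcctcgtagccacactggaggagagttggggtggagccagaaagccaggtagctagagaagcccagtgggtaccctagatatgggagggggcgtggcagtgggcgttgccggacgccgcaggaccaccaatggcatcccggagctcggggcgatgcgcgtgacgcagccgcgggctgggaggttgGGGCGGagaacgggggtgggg
Stard5, chr7:83631767-83632066, plus strand: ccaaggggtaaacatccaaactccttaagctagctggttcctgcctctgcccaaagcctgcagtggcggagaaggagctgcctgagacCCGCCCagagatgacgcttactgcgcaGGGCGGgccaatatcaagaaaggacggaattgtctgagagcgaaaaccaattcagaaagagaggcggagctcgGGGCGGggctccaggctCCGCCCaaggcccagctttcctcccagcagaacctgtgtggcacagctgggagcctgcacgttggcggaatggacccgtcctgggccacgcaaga
Abca1, chr4:53159846-53160145, minus strand: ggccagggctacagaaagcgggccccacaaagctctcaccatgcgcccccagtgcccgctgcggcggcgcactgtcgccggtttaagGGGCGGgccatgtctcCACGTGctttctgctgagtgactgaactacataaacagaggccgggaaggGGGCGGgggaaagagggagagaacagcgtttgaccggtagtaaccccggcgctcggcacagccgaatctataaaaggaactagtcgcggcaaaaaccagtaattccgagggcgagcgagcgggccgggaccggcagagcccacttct
Npc2, chr12:84773063-84773362, minus strand: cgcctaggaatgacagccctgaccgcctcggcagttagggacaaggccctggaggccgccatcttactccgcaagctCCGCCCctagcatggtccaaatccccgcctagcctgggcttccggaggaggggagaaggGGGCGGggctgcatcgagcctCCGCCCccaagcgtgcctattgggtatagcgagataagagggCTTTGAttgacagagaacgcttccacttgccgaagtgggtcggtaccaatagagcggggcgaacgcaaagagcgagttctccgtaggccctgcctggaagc

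The exact sequence AAGGTCA, a form of the site of SF1, on whose reporter one group was sorted, was in none of the 7 windows. It was in 4.72% of all 32851 promoter windows, and other forms of the SF1 site were not searched. The TCF/LEF core, on which the other group was sorted, was in the Npc2 window alone, at positions -51 to -46 from the start, and in 16% of all windows. Abca1 held an E-box at positions -147 to -142, a motif in 7.15% of all windows. The Lipe window that begins further upstream also held an E-box. GC boxes, which bind Sp1-type factors, were in 6 of the 7 windows and in 35.7% of all windows, and the Soat1 window had 1, starting 30 bases into the transcript. Matching GC boxes overlapped each other in 1 Lipe window and overlapped no other motif. A match describes letters in these windows and was not tested as a binding site.

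Scarb1, the high-density lipoprotein receptor, was at 9.02, 8.05, 8.39 and 8.51 in SF1+ replicates 1 to 4 and at 9.08, 9.35 and 8.98 in Wnt+ replicates 1 to 3. SF1+ replicate 1 lay within the Wnt+ range and the other 3 SF1+ arrays lay below every Wnt+ array. The group means were 8.49 ± 0.40 (SD, n = 4) and 9.14 ± 0.19 (SD, n = 3), a difference of 0.65 (SE 0.22, 95% interval 0.11 to 1.18, limma adjusted p = 0.236). With each array left out in turn it ranged from 0.50 (without SF1+ replicate 2) to 0.82 (without SF1+ replicate 1). Its unadjusted p was under 0.05 in 5 of those 7 fits, and was over it without SF1+ replicate 3 and without Wnt+ replicate 2.

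Soat1, which esterifies cholesterol in adrenal and most other tissues, was at 8.05, 7.35, 7.20 and 7.42 in SF1+ and at 8.21, 8.76 and 8.50 in Wnt+. Every Wnt+ array was above every SF1+ array, and SF1+ replicate 1 was the SF1+ array nearest to them. The means were 7.50 ± 0.37 (SD, n = 4) and 8.49 ± 0.27 (SD, n = 3), and the 95% interval of the difference ran from 0.45 to 1.52 (limma adjusted p = 0.126). The difference ranged from 0.85 to 1.17 with each array left out in turn, and its unadjusted p was under 0.05 in all 7 of those fits. Soat2, the isoform of intestine and liver, was dim, below the array median in all 7 arrays. It was at 2.78, 2.88, 2.88 and 2.78 in SF1+ and at 2.67, 2.64 and 2.61 in Wnt+, and its groups did not overlap although they lay only 0.19 apart. The difference of -0.19 (SE 0.07, limma adjusted p = 0.263) lies in a range where the values are compressed. Its unadjusted p was under 0.05 in only 2 of the 7 fits that left out an array, without SF1+ replicate 1 or 4, and it was 0.0728 with limma after median-centring.

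Lipe, hormone-sensitive lipase, which frees cholesterol from stored ester, was the most scattered of the 10 in Wnt+. Its brighter cluster was at 5.26, 5.01, 5.32 and 5.23 in SF1+ and at 4.75, 6.41 and 6.07 in Wnt+. Wnt+ replicate 1 was below every SF1+ array and Wnt+ replicates 2 and 3 were above all of them. The difference was 0.54 (SE 0.37, 95% interval -0.34 to 1.41, limma adjusted p = 0.561). Leaving out Wnt+ replicate 2 gave 0.20, and leaving out Wnt+ replicate 1 gave 1.03, which passed (limma adjusted p = 0.0421, in a fit that called 312 genes). The second Lipe cluster gave 5.22, 4.56, 4.89 and 5.08 in SF1+ and 5.16, 5.91 and 5.59 in Wnt+, a difference of 0.61 (SE 0.22, limma adjusted p = 0.257 over all clusters). There Wnt+ replicate 1 lay within the SF1+ range rather than below it.

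**Figure D2:**
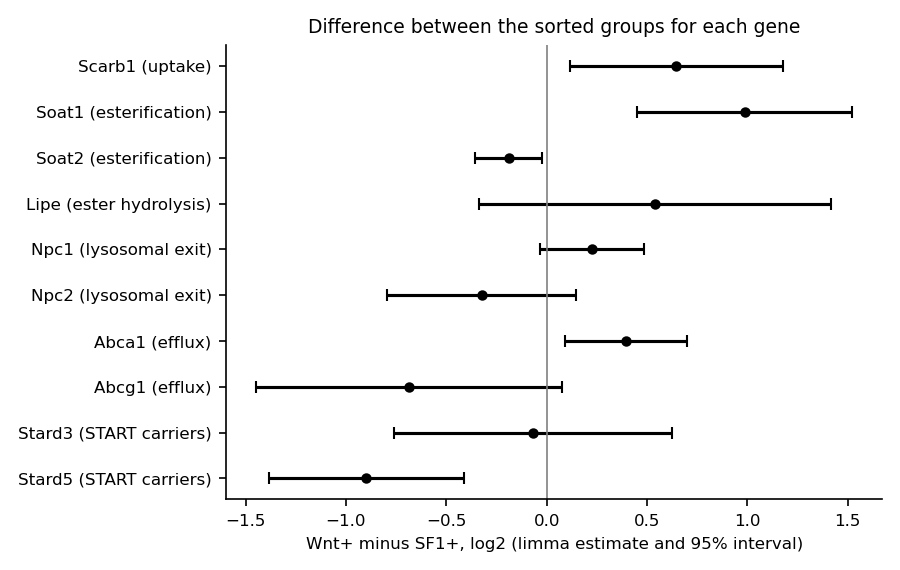
Difference Wnt+ minus SF1+ on the log2 scale for the 10 genes, with points for the limma estimate and bars for its 95% interval, not adjusted for the number of genes. The intervals of Scarb1, Soat1 and Abca1 lie above 0, those of Soat2 and Stard5 below 0, and those of the other 5 genes include 0.

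Neither gene of the lysosomal pair had an unadjusted limma p under 0.05 with all arrays. Npc1, the membrane protein that passes cholesterol out of the lysosome, was at 5.41, 5.67, 5.54 and 5.46 in SF1+ and at 5.57, 5.76 and 5.91 in Wnt+. Its groups overlapped, and the difference was 0.22 (SE 0.11, 95% interval -0.03 to 0.48, limma adjusted p = 0.391). It was 0.14 without Wnt+ replicate 3 and 0.31 without Wnt+ replicate 1, where the unadjusted limma p was 0.0277. Npc2, the soluble protein that hands cholesterol to Npc1, was at 7.72, 8.53, 8.35 and 8.24 in SF1+ and at 7.70, 7.94 and 8.03 in Wnt+. SF1+ replicate 1 was lower than the other SF1+ arrays and lay among the Wnt+ values. The Npc2 difference was -0.32 (SE 0.20, 95% interval -0.79 to 0.15, limma adjusted p = 0.507). Without SF1+ replicate 1 it was -0.49, where the unadjusted limma p was 0.00898.

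The efflux transporters had differences of opposite sign. Abca1, which loads cholesterol onto lipid-poor apolipoprotein A-I, was at 4.78, 5.07, 4.65 and 4.93 in SF1+ and at 5.18, 5.15 and 5.44 in Wnt+. All Wnt+ arrays lay above all SF1+ arrays, by 0.40 on average (SE 0.13, 95% interval 0.09 to 0.70, limma adjusted p = 0.216). The unadjusted p was under 0.05 in 6 of 7 fits that left out an array, and was 0.0647 with limma without Wnt+ replicate 3. Abcg1, which exports cholesterol to mature high-density lipoprotein, was at 4.06, 4.96, 4.42 and 5.11 in SF1+ and at 4.21, 3.38 and 4.27 in Wnt+. Its groups overlapped through SF1+ replicate 1, and Wnt+ replicate 2 was the lowest array. The difference was -0.68 (SE 0.32, 95% interval -1.45 to 0.08, limma adjusted p = 0.376), and -0.40 without Wnt+ replicate 2.

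Among the START-domain carriers, Stard5 differed and Stard3 had no steady direction. Stard5, a soluble cholesterol-binding protein, was at 4.72, 4.61, 4.10 and 4.55 in SF1+ and at 3.87, 3.21 and 3.70 in Wnt+. Every Wnt+ array lay below every SF1+ array. The means were 4.49 ± 0.27 (SD, n = 4) and 3.60 ± 0.34 (SD, n = 3), with a 95% interval of the difference from -1.38 to -0.41 (limma adjusted p = 0.126). It ranged from -1.04 to -0.71 with each array left out in turn, with an unadjusted p under 0.05 in all 7 fits. Stard3, which tethers late endosomes and moves cholesterol at their membrane, was at 4.75, 4.55, 4.64 and 4.81 in SF1+ and at 4.63, 3.93 and 5.30 in Wnt+. The Wnt+ arrays lay on both sides of the SF1+ arrays, and the difference of -0.07 (SE 0.29, limma adjusted p = 0.948) was 0.27 without Wnt+ replicate 2.

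The difference between related genes within each array was also compared between the sorts. Probes differ in brightness, so only the shift between groups can be read, and these pairs were chosen after their values were seen and carry no test. Abca1 minus Abcg1 was at -0.18 to 0.72 in SF1+ and at 0.97 to 1.76 in Wnt+, a shift of 1.08. Npc1 minus Npc2 shifted by 0.55 (-2.87 to -2.31 in SF1+, -2.18 to -2.12 in Wnt+). Stard3 minus Stard5 shifted by 0.83, though both genes had negative differences (-0.07 and -0.90). None of these 3 pairs overlapped between groups, and the share of all gene pairs that do not overlap was not computed. Soat1 minus Lipe, the forming against the cleaving enzyme of the stored ester, shifted by 0.45 and overlapped (1.89 to 2.79 in SF1+, 2.35 to 3.46 in Wnt+). Both of these genes had positive differences. Soat1 minus Abca1 shifted by 0.59 and overlapped (2.28 to 3.26 in SF1+, 3.03 to 3.61 in Wnt+). Scarb1 minus Abcg1, uptake against efflux, shifted by 1.33 and overlapped through SF1+ replicate 1.

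Marker lists of the cell types in the gland are given here beside these genes. All 12 steroidogenic cortex markers had a positive difference. Their mean level was 7.26 to 7.99 in SF1+ and 8.47 to 9.07 in Wnt+, and it was highest within SF1+ in replicate 1 and within Wnt+ in replicate 2, as Soat1 and Scarb1 were. Their mean difference was 1.17, beside 0.99 for Soat1 and 0.65 for Scarb1, and Scarb1 minus the marker mean was lower in every Wnt+ array (0.26 to 0.61) than in every SF1+ array (0.65 to 1.12). Soat1 minus the marker mean overlapped (-0.25 to 0.06 in SF1+, -0.31 to -0.22 in Wnt+), as did Lipe minus it (shift -0.63). Abca1 minus the marker mean was lower in every Wnt+ array (shift -0.78). The marker mean itself was higher in every Wnt+ array, so a gene that did not differ would also fall against it without overlap. Nr5a1 itself, one of the 12, averaged 5.75 ± 0.47 (SD, n = 4) over the arrays with the SF1+ label and 7.30 ± 0.38 (SD, n = 3) over those with the Wnt+ label, against the direction of its own label. The directions here rest on the labels. In bulk samples fewer cells of a type and less RNA per cell cannot be told apart.

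Macrophage and myeloid markers, of which 15 of 16 had a negative difference, averaged 6.62, 8.20, 7.07 and 7.52 in SF1+ and 6.92, 6.56 and 7.21 in Wnt+. Their groups overlapped. Ptprc, Laptm5 and Cd68, 3 of the 16, were lower at an unadjusted limma p under 0.05, beside 7.89% of all genes. Adgre1, C1qc and Mrc1 hardly differed (0.03, -0.0004 and -0.02). The myeloid markers were lowest within SF1+ in replicate 1, as were Npc2, Abcg1, Npc1 and Soat2, 4 of the 10 genes. Within Wnt+ they were lowest in replicate 2, as was Abcg1, while Npc2 was lowest in replicate 1. Endothelial markers were lower in Wnt+ for 15 of 15, with a mean of 7.86 to 8.36 in SF1+ and 5.45 to 7.65 in Wnt+. Within Wnt+ the endothelial markers were lowest in replicate 2, as were Abcg1, Stard5, Stard3 and Abca1, 4 of the 10 genes. Within SF1+ they were lowest in replicate 1, as was Abcg1, while Stard5 was highest there. Lymphocyte markers were lower for 15 of 15 (3.82 to 5.12 in SF1+, 2.74 to 2.80 in Wnt+), 4 of them below the array median in all arrays, and 5 of the 15 fell at a limma adjusted p under 0.05. Chromaffin markers were higher for 15 of 15 (4.14 to 5.15 in SF1+, 5.21 to 6.35 in Wnt+). Capsule and fibroblast markers (4.37 to 5.06 and 4.28 to 5.42) and erythroid markers (4.46 to 5.51 and 4.02 to 5.69) overlapped between the groups. In the group where each was lower, the macrophage gene Cd68 averaged 7.22 ± 0.20 and the endothelial gene Pecam1 6.94 ± 1.05 (SD, n = 3, Wnt+), and the chromaffin gene Th 5.36 ± 1.14 (SD, n = 4, SF1+). The lymphocyte genes Cd3d, Klrd1 and Nkg7 averaged 2.30, 2.38 and 2.90 in Wnt+, below the array medians of 3.13 to 3.23. Cd3e and Gzma of the same list averaged 3.91 and 3.53 there, above those medians. The part of these cells in the differences of the 10 genes was not tested.

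**Figure D3:**
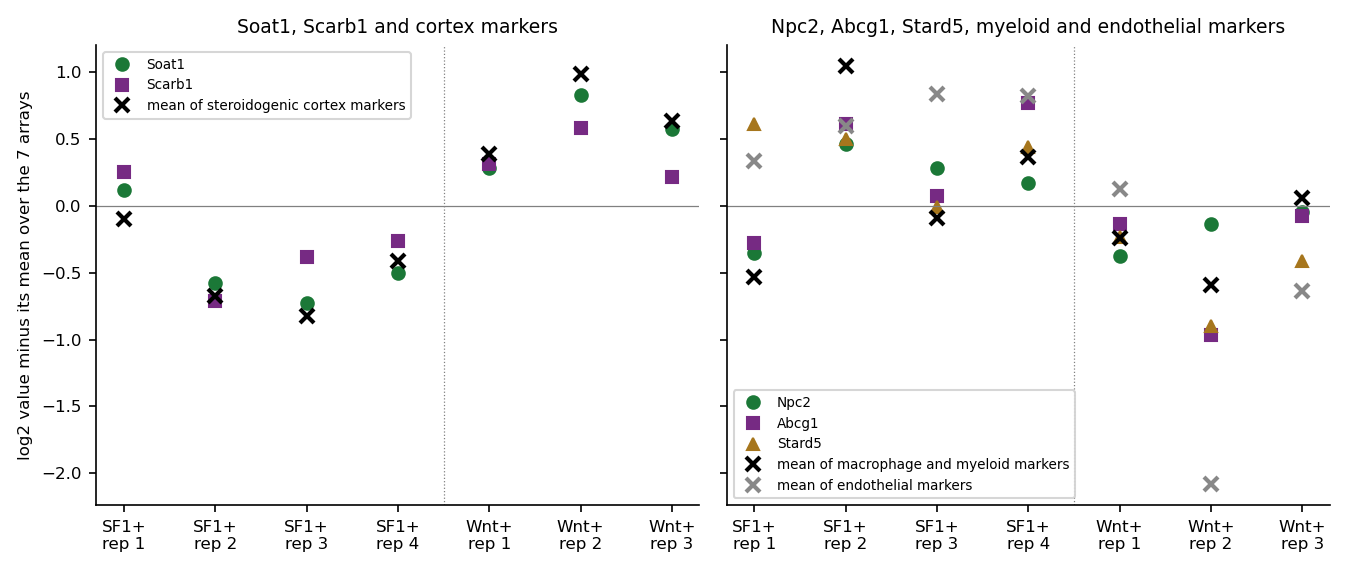
Log2 value in each array minus its own mean over the 7 arrays, for Soat1, Scarb1 and the mean of 12 cortex markers (left) and for Npc2, Abcg1, Stard5 and the means of 16 myeloid and 15 endothelial markers (right). Soat1 and Scarb1 are highest in the same array of each group as the cortex markers, and SF1+ replicate 1 is the lowest SF1+ array for Npc2, Abcg1 and the myeloid markers. Within Wnt+, Npc2 is lowest in replicate 1 and the myeloid markers in replicate 2. Stard5 is highest in SF1+ replicate 1, the lowest SF1+ array for the endothelial markers.

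Other genes of cholesterol handling were read from 4 lists of 49 genes in all. Of these, 0 passed over all genes with limma, the lowest adjusted p being 0.0871, and 8 had an unadjusted p under 0.05 (5 higher, 3 lower), which is 16.3% against 15.5% of all genes. Their median difference was -0.02, with 24 positive and 25 negative, and the arrays did not overlap for 5 (10.2% against 14.1% of all genes).

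Lipoprotein uptake held 3 of the 8 genes. Mylip, a ubiquitin ligase induced by oxysterols that limits lipoprotein uptake, was at 5.86, 6.21, 6.45 and 6.16 in SF1+ and at 5.35, 4.36 and 4.39 in Wnt+. Every Wnt+ array was lower (-1.47, SE 0.27, limma adjusted p = 0.0871). Mylip passed without Wnt+ replicate 1 (limma adjusted p = 0.0285, in a fit that called 312 genes). It also passed among the 10359 brighter genes (limma adjusted p = 0.0391, in a fit that called 221 genes). Lrp8, a receptor for apolipoprotein E and reelin, differed by -0.47 (SE 0.12, limma adjusted p = 0.143) without overlap. Its Wnt+ arrays, at 3.05, 3.08 and 3.16, were dim, near the array medians of 3.13 to 3.23. Vldlr, a receptor for triglyceride-rich lipoproteins, was dim, at 2.86, 2.77, 2.20 and 2.30 in SF1+ and at 3.04, 2.91 and 3.51 in Wnt+. Its groups did not overlap, with a difference of 0.62 (SE 0.22, limma adjusted p = 0.241), and its unadjusted p was under 0.05 in 4 of 7 fits that left out an array. The list of 10 had 5 positive and 5 negative differences.

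Intracellular sterol transport, a list of 15 genes with 9 positive and 6 negative differences, held 3 of the 8. Of all genes, 15.5% had an unadjusted p under 0.05. Gramd1b, which encodes Aster-B, the protein that carries lipoprotein-derived cholesterol from the plasma membrane to the endoplasmic reticulum in mouse adrenal, was at 7.28, 5.89, 5.89 and 6.24 in SF1+ and at 7.84, 8.39 and 7.85 in Wnt+. All Wnt+ arrays were higher, with SF1+ replicate 1 nearest to them as for Scarb1 and Soat1. The difference was 1.70 (SE 0.36, limma adjusted p = 0.114), larger than that of any of the 10 genes. Without SF1+ replicate 1 it was 2.02, which passed (limma adjusted p = 0.0264, in a fit that called 76 genes). Gramd1b also passed among the 10359 brighter genes (limma adjusted p = 0.0483, in a fit that called 221 genes). The oxysterol-binding relatives Osbpl1a (0.39, SE 0.13) and Osbpl5 (0.28, SE 0.11) were the others, with an unadjusted p under 0.05 in 3 and 2 of the 7 fits that left out an array. Osbpl5 was dim, at 2.61 to 2.96 in SF1+ and 3.03 to 3.09 in Wnt+, below the array medians of 3.13 to 3.23. The soluble START protein Stard4 differed by 0.23 (SE 0.13), with 0.13 without Wnt+ replicate 1 and 0.36 without Wnt+ replicate 3. Star, which takes cholesterol into mitochondria at the end of this route, averaged 9.09 ± 0.44 over the 4 SF1+ arrays and 10.12 ± 0.15 over the 3 Wnt+ arrays (mean ± SD), a difference of 1.03 (SE 0.24).

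Of 14 genes of ester storage and droplets, 7 were positive and 7 negative, and 2 had an unadjusted p under 0.05, beside 15.5% of all genes. Dgat1, which makes triglyceride, differed by -0.86 (SE 0.34), with an unadjusted p under 0.05 in 1 of 7 fits that left out an array. The droplet coat gene Plin1 differed by 0.74 (SE 0.30), and by 0.44 without Wnt+ replicate 2. Without Wnt+ replicate 1 the Plin1 difference was 1.11, which passed (limma adjusted p = 0.0477, in a fit that called 312 genes). Its relative Plin3 differed by 0.60 (SE 0.27), and by 0.34 without Wnt+ replicate 2. Plin2, the common droplet coat protein, differed by -0.24 (SE 0.22), and by -0.07 without SF1+ replicate 2 or without Wnt+ replicate 1. Lipa, the lysosomal lipase that cleaves incoming esters, differed by 0.20 (SE 0.37), with 0.43 without Wnt+ replicate 1 and a negative value of -0.18 without Wnt+ replicate 2. Of 10 genes of efflux and oxysterol sensing, 7 were negative and none had an unadjusted limma p under 0.05, and 0 had an adjusted one. The phospholipid transfer protein gene Pltp differed by -0.58 (SE 0.26), the oxysterol receptor gene Nr1h2 by -0.29 (SE 0.17) and Apoa1 by -0.17 (SE 0.11). Nr1h2 was at -0.15 without SF1+ replicate 3, and Apoa1 at -0.10 without Wnt+ replicate 1.

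**Figure D4:**
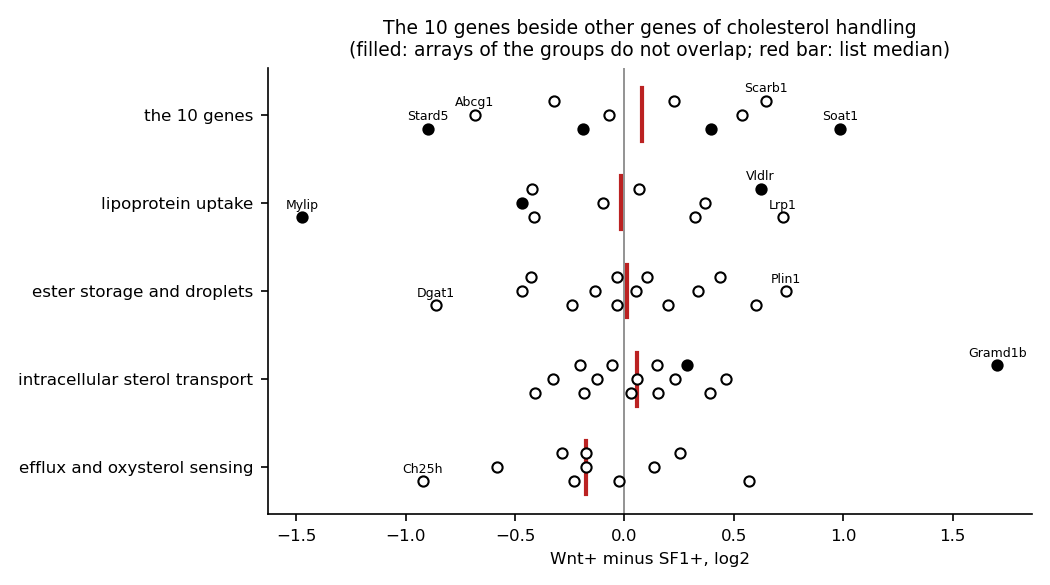
Difference Wnt+ minus SF1+ on the log2 scale for the 10 genes and for 49 other genes in 4 lists, 1 point per gene, filled where the arrays of the groups do not overlap, with a red bar at each list's median and names where the difference is beyond 0.6 either way. Gramd1b and Mylip lie further from 0 than any of the 10 genes, and the list medians lie between -0.17 and 0.08.

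The genes with array profiles most like 3 of the members were found by the root mean square difference of log2 values over the 7 arrays, each gene's own mean taken off. For Soat1, whose own profile had a root mean square of 0.56 about its mean, they were Fbxo3 (0.0976), Dhrs11 (0.104) and Cyp11a1 (0.11), the side-chain cleavage enzyme that starts steroid synthesis. For Scarb1 (0.43 about its mean) they were Podxl2 (0.128), Mapre3 (0.133) and Dpy19l4 (0.142). For Stard5 (0.51 about its mean) they were Inpp5b (0.112), Rbms1 (0.133) and Acvr2a (0.134), each with a negative difference of its own (-0.74, -0.81 and -0.79).

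A further readout of the same genes came from the authors' deposited table, which holds folds and unadjusted paired p-values of another experiment, described in its header as 4 pairs of Bio and vehicle in adrenocortical tumor cell lines of the mouse. In the authors' deposited table Abca1 had a fold of 0.35 (p = 0.0018 by the authors' paired test) and Scarb1 one of 0.867 (p = 0.0112). The authors' deposited table gave folds above 1 to Soat2 (2.4, p = 0.00736), Stard5 (1.98, p = 0.00241), Npc2 (1.3, p = 0.001) and Npc1 (1.29, p = 0.00208), by the same paired test. Soat1 had a fold of 1.06 in the authors' deposited table (p = 0.0742 by the paired test), and Lipe, Abcg1 and Stard3 had folds of 0.98, 0.933 and 1.04. In all, 6 of 10 had a paired p under 0.05 in the authors' deposited table, against 35.5% of all genes (18.2% with a fold above 1 and 17.3% below 1), and 5 of 10 after Benjamini-Hochberg adjustment of those p-values over 20719 genes, against 18.9%. Of the 6 genes with a paired p under 0.05 in the authors' deposited table, Abca1, Stard5, Soat2, Scarb1 and Npc2 had the opposite sign in the sorted cells and Npc1 the same sign. Of the other 4 genes, Lipe and Stard3 had opposite signs in the authors' deposited table and in the sorted cells, and Soat1 and Abcg1 the same. These were other cells and another treatment, the sample values behind the folds were not analysed here, and the difference between the experiments was not tested.

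**Figure D5:**
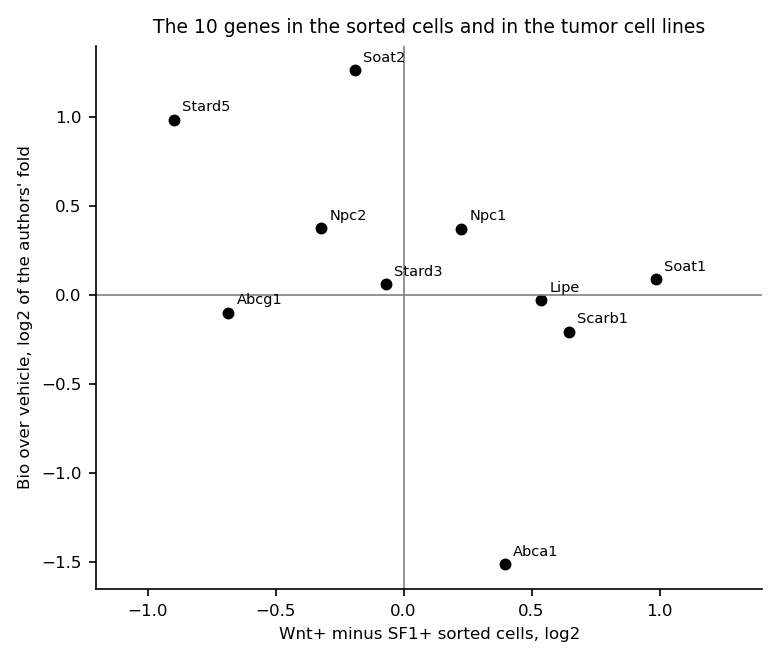
Log2 of the authors' fold of Bio over vehicle in tumor cell lines (vertical) against the difference Wnt+ minus SF1+ in sorted cells (horizontal, log2) for the 10 genes. Abca1 lies at 0.40 and -1.52, Stard5 at -0.90 and 0.99, and Soat1 near 0 on the vertical axis (0.09).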

How the data were processed

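GFP-positive adrenal cells were measured on 4 SF1+ and 3 Wnt+ arrays, and the labels' protocols state 4 sorts per genotype. The authors deposited log2 values per transcript cluster, made with RMA on perfect-match probes per the file headers and with oligo per the submitters' processing notes. The version of each was not given in the sources used here, and none is stated. RMA equalises the arrays' distributions and compresses dim values. Per the file headers, the authors' deposited table also holds unadjusted p-values and linear fold changes for this comparison and for Bio against vehicle.

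Of 28944 clusters, 23812 had a symbol, and each gene took its cluster with the highest mean, which left 20719 genes. Array medians were 3.13 to 3.23. No arrays were identical, and 7 per-sample columns of a drawing sheet were not used. Older symbols of list genes were matched by Entrez identifier to RefSeq (GRCm38.p6), which named Adgre1 and Epb42, and Hbb-bt had no match. Group differences came from limma 3.58.1 (R 4.3.3), fitted over all genes, two-sided, without a replicate block, and adjusted by the Benjamini-Hochberg method at 0.05. SE and 95% intervals are those of the moderated fit (prior degrees of freedom 1.98). The labels call the samples biological replicates from independent sorts.

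The members and lists were chosen with earlier results of these data known. Named were all 10 members, the 3 smallest p of each list, Lipa, Plin2, Stard4 and Star by role, and the 3 nearest profiles to Scarb1, Soat1 and Stard5, leaving out predicted genes, clones and olfactory or vomeronasal receptors. A gene of the uptake list is not reported here and was left out of its counts. The alternatives tried were each array left out in turn, dim genes left out, a replicate block, median-centring, quantile normalisation, no moderation, trended and robust moderation, array weights and the mean of a gene's clusters. Leaving out SF1+ replicate 1 and Wnt+ replicate 2 together was added after the data were seen. The fit was tested on simulated data. Plots used matplotlib 3.10.9 in Python 3.11.15.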

Additional observations from a re-analysis of the deposited data

Results flagged for a closer look

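Of 26 named genes tested for an array apart from the rest of the SF1+ group, 1 stood out, where about 1 in 20 would by chance. The phospholipid transfer protein gene Pltp was at 5.24 in SF1+ replicate 1 and at 6.05 to 6.09 in the other 3 SF1+ arrays. The gap was 0.946 of the group's range. Its difference Wnt+ minus SF1+ of -0.58 was -0.79 without that array. Macrophage and myeloid markers were also lowest in SF1+ replicate 1 among the SF1+ arrays (6.62 beside 7.07 to 8.20), and their part was not tested.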

How the results depend on the processing

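Of 159 values of the 10 genes under 16 alternatives (Soat2 had none without dim genes), 156 kept their direction and their side of the threshold. Stard3 turned positive without Wnt+ replicate 2 (0.27) and without SF1+ replicate 1 and Wnt+ replicate 2 together (0.30), with -0.41 without Wnt+ replicate 3, and Lipe passed without Wnt+ replicate 1. Of 253 values of 16 other named genes, 246 did, 5 newly passed, and Lipa turned negative (-0.18 and -0.34 under the same alternatives, with up to 0.43 without Wnt+ replicate 1). The cause was not tested. None of these 10 and 16 genes passed in the main fit, so keeping a side of the threshold meant not passing. Directions could not change without dim genes, without moderation or with trended and robust moderation, which leave the differences as they are. The replicate block gave the same differences as leaving out SF1+ replicate 4 (Scarb1 0.65 in both). The count of values that kept both is therefore no measure of robustness. With each array left out, members past an adjusted p numbered 0 to 1, members past an unadjusted p 3 to 7 (3 without SF1+ replicate 3, Wnt+ replicate 2 or Wnt+ replicate 3) and other pathway genes past it 4 to 9 (4 without SF1+ replicate 3). Without dim genes 3 members had an unadjusted p under 0.05, with Soat2 not tested and Abca1 at 0.0542, and 5 other pathway genes did, where 8 had in the full set. Without moderation 5 other pathway genes did. Without moderation, which is the authors' test, Scarb1 had an unadjusted p of 0.052. All genes past an adjusted p numbered 53, and 0 without moderation (2684 at an unadjusted p under 0.05), 27 after median-centring, 155 with trended and robust moderation, 221 without dim genes, 33 with array weights and 1 to 312 with each array left out.

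Equal replicate numbers did not pair the samples: deviations of same-numbered arrays from their group means correlated at -0.217, 0.034 and -0.214 over genes. No array correlated best with its own number. With the replicate block, 2 members had an unadjusted p under 0.05 (Soat1 and Stard5), and 0 of all genes passed (2468 at an unadjusted limma p under 0.05).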
